A study of Mus musculus with 281 samples.

Results

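Lysosomes are the acid compartments in which a cell breaks down proteins, lipids and sugars, and this account follows 41 genes that encode their parts through single mouse bone marrow cells. The genes were chosen as a named list of lysosomal parts, drawn up with earlier results of these data known: 7 lysosomal membrane proteins, 3 soluble cofactors, 19 hydrolases and other lumenal enzymes, 11 subunits or accessory proteins of the proton pump (the vacuolar ATPase, V-ATPase) and the transcription factor Tfeb. Cathepsins were left out by that choice. All 41 were found among the 43280 genes of the deposited table, and all but Ids were among the 12026 genes whose level, averaged over the 6 cell labels, reached 1 TPM. The unit TPM is an estimate of a gene's share of the transcripts of a cell, corrected for transcript length and scaled to the same total in each cell.

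The V-ATPase pumps protons into the lysosome with energy from ATP, and the acid pH it sets lets the hydrolases work. Heavily glycosylated membrane proteins such as LAMP1 and LAMP2 line the inside of the membrane, and small cofactors such as the saposins, cut from the Psap product, present lipids to the enzymes. Monocytes and the macrophages they form are known for degrading what they take up, whereas neutrophils store many of their enzymes in granules made during maturation. TFEB is a transcription factor that binds CACGTG-containing elements near many lysosomal genes.

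The study sorted cells from C57BL/6 bone marrow to examine how granulocyte-monocyte progenitors (GMP) differ among themselves. The labels give neither the age nor the sex of the mice. Cells labelled CMP (47 cells) were Lin-Ckit+Sca-1-CD34+ with low CD16/32. Cells labelled Ly6C-GMP (45) and Ly6C+GMP (95 in title run A and 10 in run C, defined below) had high CD16/32 and were separated by Ly6C, a surface protein that rises with monocytic commitment. Cells labelled proneu (22) came from the same gate as Ly6C+GMP, except 1 cell that has no gate in its label. The 31 preNeu cells were Lin-Gr1+CD11b+CD115-SiglecF-ckit+CXCR4+, and the 31 tpMo cells were Lin-CD115+ckit-CXCR4+Ly6C+. Here tpMo and Ly6C+GMP stand for the monocyte side and preNeu and proneu for the neutrophil side. These sides follow the labels, and not every Ly6C+GMP cell held monocyte genes, as given below. Each of the 281 deposited samples is 1 cell, and no label names a mouse or a sort, so each label counts as 1 sample. Differences between labels therefore have no replicate check, no p-value is given, and ranges are over cells.

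The labels were checked against 8 monocyte and 8 neutrophil marker genes. The summed neutrophil markers ran from 130536 to 298094 TPM in preNeu cells and from 106 to 6213 TPM in tpMo cells, and the summed monocyte markers from 1265 to 8428 TPM in tpMo and from 0 to 12.8 TPM in preNeu. In the progenitors the highest cells held 69403 TPM of these neutrophil markers (Ly6C-GMP, median 112) and 63963 TPM (Ly6C+GMP, median 214). The median of the neutrophil markers was 1176 TPM in proneu and 453 TPM in tpMo, the latter above that of Ly6C+GMP. For the monocyte markers the median was 1455 TPM in Ly6C+GMP and 90.9 TPM in proneu. A list of 7 macrophage genes summed to between 0 and 149 TPM in tpMo, with C1qa, C1qb, C1qc and Cd5l at 0 in every tpMo cell. The cells differ in detection too: a median of 2373 genes reached 1 TPM in preNeu and 3082 in tpMo, and the medians of the 4 progenitor labels lay between 3489 (CMP) and 4829 (Ly6C+GMP). The 20 top genes of each cell held 47.1% of the TPM in the median preNeu cell and 18.5% in the median tpMo cell. TPM is a share, so such abundant transcripts lower all other values in the cell, and the read depth is unknown. The sample titles fall into 4 runs of names, called H, A, B and C here, to which the labels give no meaning: all tpMo and preNeu cells and 21 of 22 proneu cells are in run C, and all but 10 of the Ly6C+GMP cells are in run A.

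Promoter sequences are shown first for the members that carry the TFEB-type element in the RefSeq window of 250 bases before to 50 after the start site (GRCm38.p6). Of the 41 genes, 36 had such a window. CACGTG, which reads the same on both strands, was found in 12 of these 36 genes (33.3%), against 8.09% of all 27025 genes with windows and 7.15% of all 32851 windows. The longer TCACGTGA, which contains it, was found in 6 of 36 (16.7%), against 1.12% of all genes with windows and 0.974% of windows: Cd164, Gla, Ifi30, Atp6v0d1, Atp6v0e and Atp6v1a. The lines below show 6 members on the coding strand, from 5′ to 3′, with each match in capitals.
Lamp1, chr8:13159074-13159177, plus strand: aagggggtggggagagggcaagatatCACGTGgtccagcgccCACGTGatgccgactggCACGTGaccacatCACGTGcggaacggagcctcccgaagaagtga
Ifi30, chr8:70766827-70766886, minus strand: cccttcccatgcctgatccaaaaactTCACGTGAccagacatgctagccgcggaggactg
Gla, chrX:134601167-134601255, minus strand: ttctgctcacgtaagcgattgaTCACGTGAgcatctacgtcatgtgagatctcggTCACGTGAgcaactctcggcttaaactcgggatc
Atp6v0b, chr4:117887316-117887391, minus strand: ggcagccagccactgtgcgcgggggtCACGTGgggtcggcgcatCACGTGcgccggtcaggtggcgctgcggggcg
Atp6v0d1, chr8:105566044-105566094, minus strand: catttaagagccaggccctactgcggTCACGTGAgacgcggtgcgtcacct
Atp6v1a, chr16:44139358-44139417, minus strand: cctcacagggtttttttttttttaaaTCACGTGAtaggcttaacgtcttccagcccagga
Lamp1 holds 4 matches within the last 61 bases before its start site, Gla and Atp6v0b hold 2 each, and the Atp6v0d1 match begins 4 bases before the start. The windows of Psap, Pld4 and Cd63 hold no CACGTG. A match is a string of letters and no evidence of binding.

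As a group, the 41 genes were most abundant in tpMo. Their summed level per cell had a median of 16351 TPM in tpMo (8988 to 26935), 8285 in proneu (4722 to 9357) and 5785 in preNeu (3407 to 12135). The other 3 medians were 7842 TPM for Ly6C+GMP (4505.99 to 12044), 7016 for Ly6C-GMP (3740.4 to 10729.8) and 4750.5 for CMP (2334 to 10445). The tpMo median was 2.83 times the preNeu median, and 26 of 31 tpMo cells lay above the highest preNeu cell. In TPM the median was thus lower in preNeu than in proneu and higher in tpMo than in Ly6C+GMP. When levels were rescaled without the mitochondrially encoded genes and the most abundant genes, tpMo still had the highest median, at 19770.5. The rescaled preNeu median was 9823, below proneu (10682) but above Ly6C+GMP (9609), Ly6C-GMP (8292) and CMP (5323). On that scale the tpMo median was 2.01 times the preNeu median. The place of preNeu among the labels thus depended on the scale. The ranges of the 4 progenitor labels overlapped broadly.

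The summed levels of the proton pump genes and of the other lysosomal genes differed in size of change. The 29 membrane, cofactor and hydrolase genes summed to a median of 10482 TPM in tpMo (4415 to 17094) and 2552 TPM in preNeu (566 to 5198), a ratio of 4.11, and 30 of 31 tpMo cells lay above every preNeu cell. For the 11 V-ATPase genes the medians were 4909 TPM in tpMo (2594 to 9840.4) and 2861 TPM in preNeu (1031 to 6937), a ratio of 1.72, and 4 tpMo cells lay above every preNeu cell. When levels were rescaled without the mitochondrially encoded genes and the 20 genes of highest mean, the V-ATPase medians came to 6081 in tpMo and 5079 in preNeu, a ratio of 1.197 with 1 tpMo cell above all preNeu cells. On that scale the other 29 genes still had a ratio of 3.07, with 29 of 31 tpMo cells above all preNeu cells. The sum of the 29 leans on a few genes. Mean TPM in tpMo and preNeu was 3331 and 192 for Psap, and 1248 and 0.69 for Pld4. It was 1074 and 0.52 for Ifi30, and 1040 and 133 for Lamp1. Gene by gene, the median difference of mean log2(TPM + 1) was 1.93 for the 29 and 1.74 for the 11 V-ATPase genes. The median log2 ratio of mean TPM was 1.64 and 0.68.

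**Figure D1:**
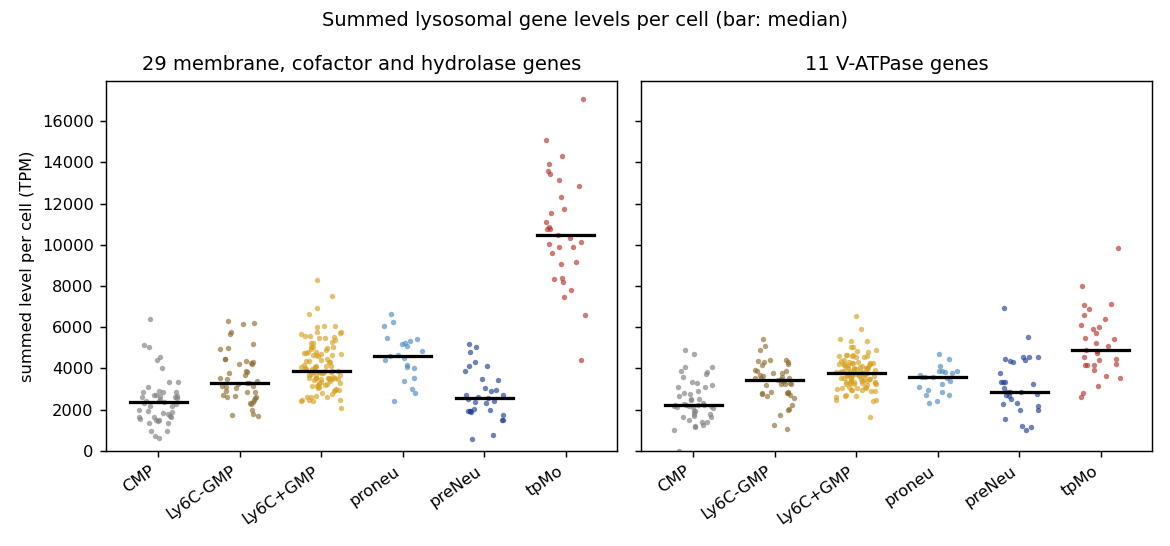
Summed TPM per cell of the 29 membrane, cofactor and hydrolase genes (left) and the 11 V-ATPase genes (right) for the 6 cell labels; each point is 1 cell and each bar the median. On the left the tpMo median of 10482 TPM stands above every preNeu cell, whereas on the right most tpMo and preNeu cells share a range.

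A few genes made up much of the sum, and they differed by label. In tpMo the largest were Psap, with 20.9% of the members' mean level, Pld4 (7.83%), Atp6v0c (7.77%), Ifi30 (6.74%) and Lamp1 (6.53%). In proneu it was Cd63, with 22.5% of the members' mean level, followed by Atp6v0c with 12.9%. Cd63 also led in preNeu (14.3%) and Ly6C-GMP (16.04%). Atp6v0c, which encodes the proton-carrying ring subunit of the pump, was among the 5 most abundant members in all 6 labels.

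By the mean over cells, tpMo had the highest level of 26 of the 41 genes, including 9 of the 11 V-ATPase genes. proneu had the highest level of 6 (Cd63, Scarb2, Gaa, Ppt1, Arsb and Atp6ap2) and preNeu of 2 (Galns and Sgsh). preNeu had the lowest level of 18 genes and CMP of 11. These ranks compare means that share cells and scale, and neighbouring means often differ by less than the spread over cells. The ranks were not counted over all genes, so whether the members' counts exceed the background is unknown.

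**Figure D2:**
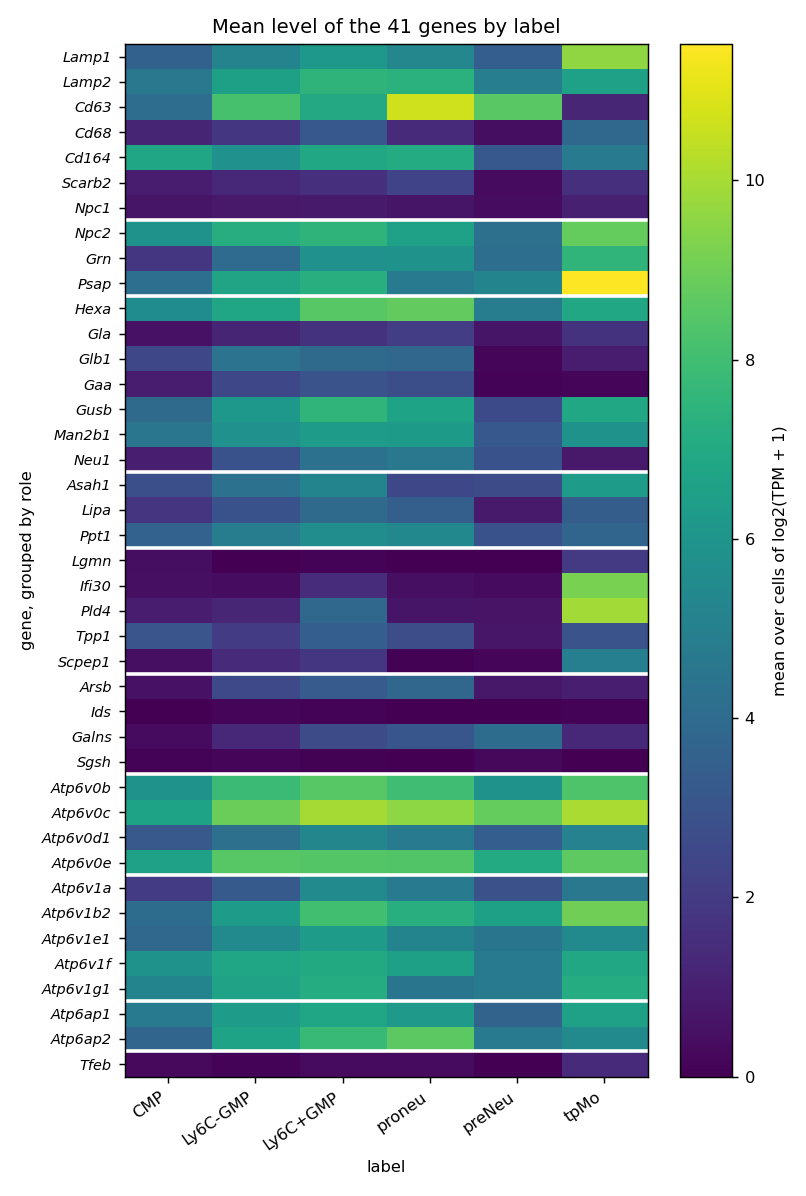
Mean over cells of log2(TPM + 1) for the 41 genes (rows, grouped by role) in the 6 labels (columns); brighter means higher. Psap, Pld4, Ifi30 and Lamp1 are brightest in tpMo, and Cd63 is brightest in proneu and dark in tpMo.

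For each comparison the level of a gene was taken as its mean over cells of log2(TPM + 1), and a gene was counted as higher or lower when these means differed by 1 log2 unit or more. In tpMo against preNeu, 29 of the 41 genes were higher and 3 were lower, where 23.7% of the 12026 genes were higher and 4.07% lower. The median difference was 1.74 log2 units over the 41 genes and 0.26 over the 12026. Taking the ratio of mean TPM instead, 23 were higher and 4 lower, against 39.1% and 14.6% of all genes, and the members' median was 1.199 beside 0.49. The count on the mean log scale thus stands further from the background than the count on mean TPM, and it weighs how many cells had a transcript detected as well as how much. The 12026 genes were taken by a floor of 1 TPM and not matched to the members in level, here or in the other comparisons. Genes near that floor have little room to differ by 1 log2 unit on the log scale, and the part of level was not tested. A median of 25 of the 41 genes reached 1 TPM in a tpMo cell (19 to 32) and 17 in a preNeu cell (12 to 24).

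**Figure D3:**
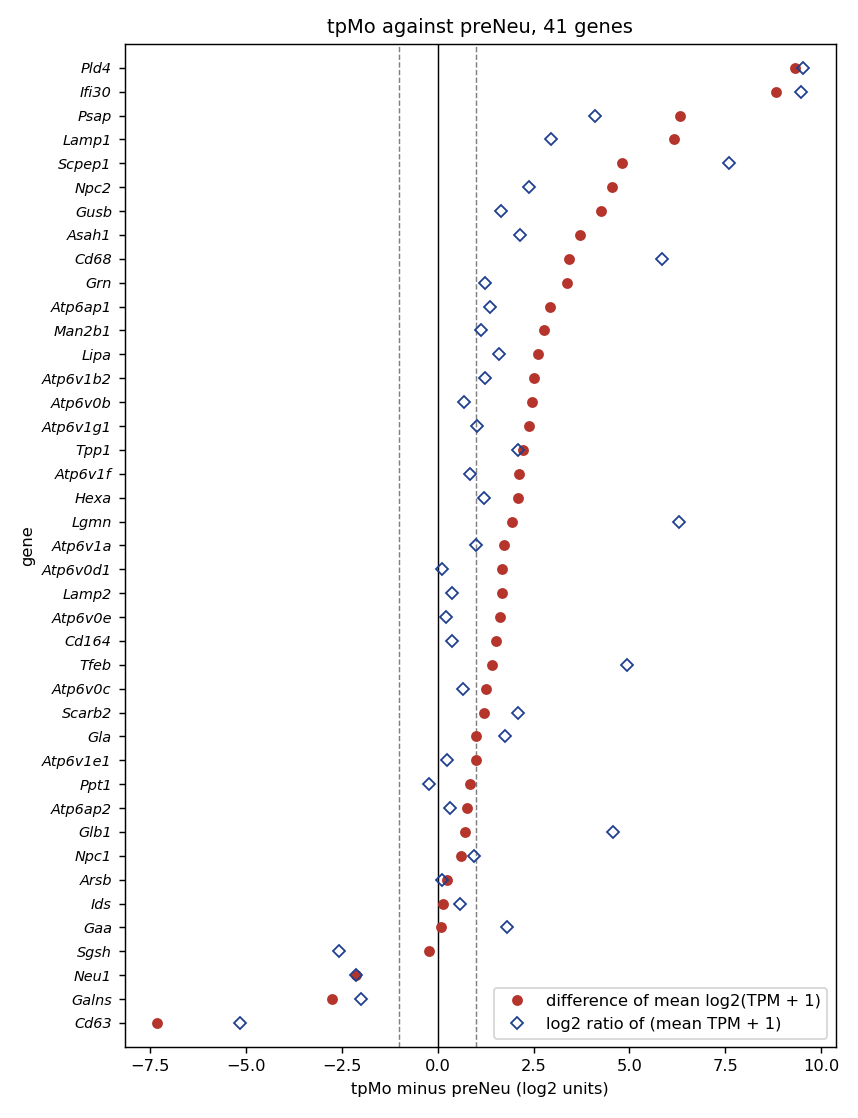
Difference between tpMo and preNeu for each of the 41 genes, as the difference of mean log2(TPM + 1) (filled) and as the log2 ratio of mean TPM + 1 (open); dashed lines mark 1 log2 unit. The open symbols of the V-ATPase genes lie between 0.13 and 1.36, each nearer to 0 than its filled one. The open symbol of Tfeb has no meaning as a fold, since Tfeb is listed at 0 in every preNeu cell.

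Among the membrane proteins, Lamp1 was 6.16 log2 units higher in tpMo. Its level per cell ran from 25.8 to 2723 TPM with a median of 816.5 TPM in tpMo, and from 0 to 746 TPM with a median of 1.63 TPM in preNeu. All 31 tpMo cells reached 1 TPM of Lamp1 and 18 of 31 preNeu cells did. The ranges overlap, and 20 of 31 tpMo cells lay above the highest preNeu cell. Lamp1 lies at chr8:13159161-13175338 and overlaps Grtp1 on the other strand, whose reads this kind of library does not tell apart. Cd68, a sialomucin of phagocyte lysosomes, was 3.42 log2 units higher, at a mean of 395 TPM in tpMo against 5.87 TPM in preNeu, and without 1 preNeu cell at 173 TPM the preNeu mean was 0.32 TPM. The tpMo cells were split for Cd68: 16 of 31 reached 1 TPM and the highest held 3069 TPM. Lamp2 (1.68), Cd164 (1.53) and Scarb2 (1.21), the carrier of glucocerebrosidase to the lysosome, were also higher on the log scale. Npc1, the membrane exporter of cholesterol, differed by 0.62.

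Cd63 went the other way, by -7.32 log2 units. CD63 is a tetraspanin of late endosomes and lysosomes that also lies in the membrane of neutrophil primary granules. In preNeu its level ran from 0 to 2300 TPM with a median of 753 TPM, and 29 of 31 cells reached 1 TPM. In tpMo its median was 0 and its highest cell 495 TPM, and 10 of 31 cells (32.3%, exact Clopper-Pearson 95% interval 16.7 to 51.4) reached 1 TPM. Leaving out that highest cell lowered the tpMo mean from 22.98 to 7.26 TPM. Only 3 of 31 tpMo cells held 10 TPM or more. These intervals cover counting error over cells only. Cd63 was thus the only one of the 7 membrane genes that was lower by 1 log2 unit or more in tpMo.

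The 3 soluble cofactors were all higher in tpMo. Psap, the saposin precursor, had the highest mean of any member in any label, at 3331 TPM in tpMo. Its level ran from 213 to 5727 TPM with a median of 3183 TPM in tpMo, and from 0 to 871 TPM with a median of 68.2 TPM in preNeu, a difference of 6.32. Of the 31 tpMo cells, 30 thus held more Psap than any preNeu cell. Npc2, the lumenal cholesterol carrier, ran from 140 to 1468 TPM in tpMo and from 0 to 463 TPM in preNeu, a difference of 4.55. Grn, the precursor of the lysosomal granulins, was 3.36 higher on the log scale, with medians of 485.5 and 7.47 TPM, but its highest preNeu cell, at 947 TPM, lay above the tpMo median. By the ratio of mean TPM, Grn differed by 1.24.

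Pld4 and Ifi30 gave the largest differences. Pld4, an endolysosomal exonuclease that degrades single-stranded nucleic acids, ran from 149 to 3692 TPM with a median of 1082 TPM in tpMo. In preNeu no cell held more than 4.15 TPM of it. It was the only member whose ranges in these 2 labels did not overlap, and it differed by 9.32 log2 units. How many of all genes separated in this way was not counted. Ifi30, the thiol reductase that unfolds disulfide-bonded antigens, reached 1 TPM in 29 of 31 tpMo cells and had a median of 984.5 TPM there. Its highest preNeu cell held 4.27 TPM, and the difference was 8.82. The 2 tpMo cells below 1 TPM kept the Ifi30 ranges from separating. Scpep1, a serine carboxypeptidase, was 4.79 higher, with 20 of 31 tpMo cells and 2 of 31 preNeu cells at 1 TPM or more. Its gene overlaps the antisense gene Scpep1os.

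Tpp1 (2.22) and Lgmn (1.93), 2 lysosomal proteases, were higher through a part of the tpMo cells. Tpp1 reached 1 TPM in 14 of 31 tpMo cells and 3 of 31 preNeu cells, and its median was 0 in both. Lgmn reached 1 TPM in 9 of 31 tpMo cells (29.03%, interval 14.2 to 48.04), up to 519 TPM, and in 1 preNeu cell at 1.04 TPM. Both were thus detected in fewer than 50% of the tpMo cells.

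**Figure D4:**
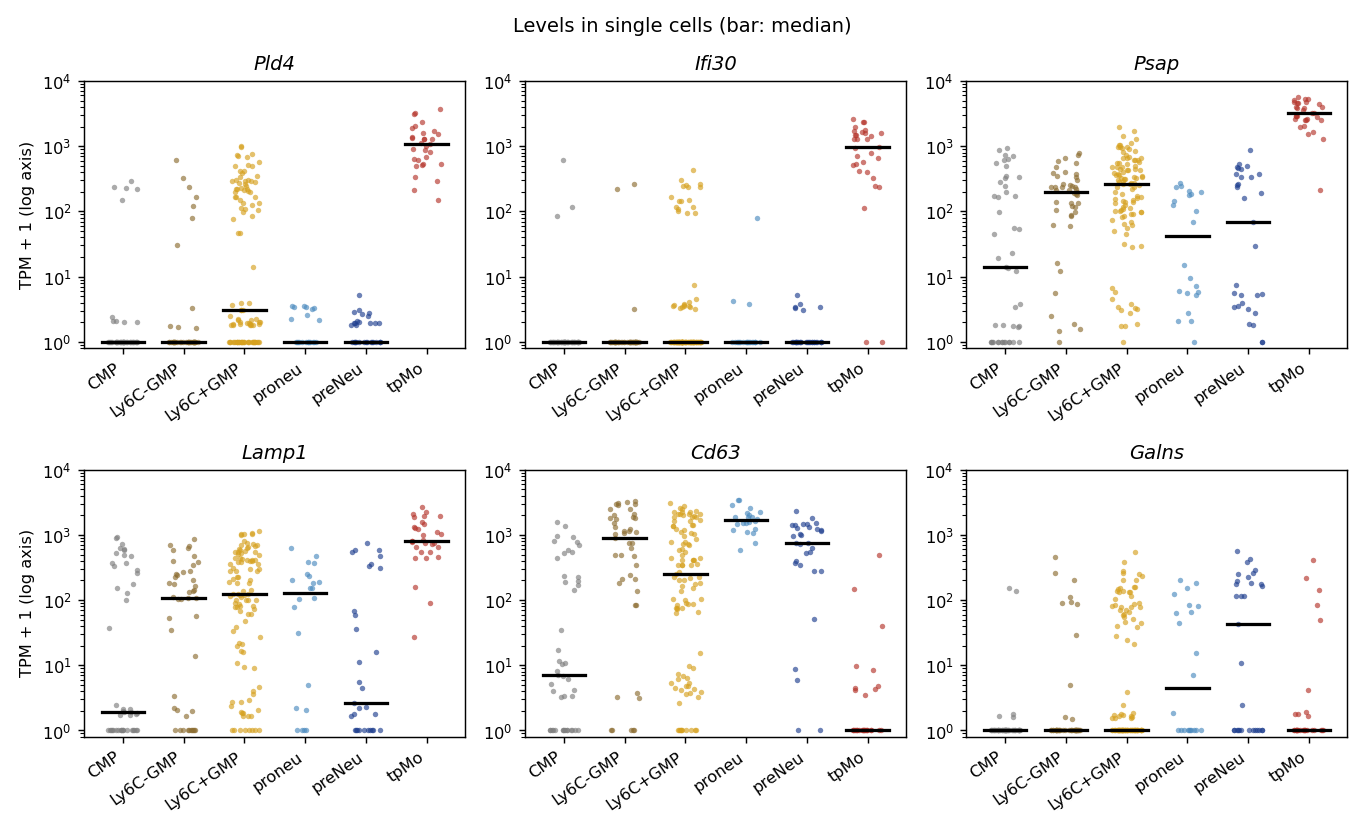
Level of 6 members in single cells as TPM + 1 on a log axis, by label; each point is 1 cell and each bar the median. Pld4 separates all tpMo from all preNeu cells, whereas Cd63 is at 0 in most tpMo cells and has its highest median, 1718 TPM, in proneu.

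The glycosidases split. Gusb, beta-glucuronidase, was 4.25 log2 units higher in tpMo, with a median of 376 TPM (0 to 1047) against 0 TPM (0 to 605) in preNeu. Man2b1, the lysosomal alpha-mannosidase, was 2.77 higher, with medians of 158 and 0.81 TPM. Hexa, the alpha subunit of hexosaminidase, was 2.08 higher, with medians of 442 and 84.2 TPM and ranges that overlap up to 1054 TPM. Gla, alpha-galactosidase, stood at the threshold (1.01), on 7 of 31 tpMo and 3 of 31 preNeu cells. Glb1 (0.72) and Gaa (0.09) were scarce on both sides: no preNeu cell held more than 1.19 TPM of Glb1 or 4.45 TPM of Gaa, and 4 and 1 of the 31 tpMo cells reached 1 TPM.

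Neu1, the lysosomal sialidase, was lower in tpMo, by -2.12 log2 units. It reached 1 TPM in 14 of 31 preNeu cells and 5 of 31 tpMo cells, and the means were 84.01 and 18.4 TPM. Each mean leans on 1 cell: without the highest, at 1029.8 TPM in preNeu and 416 TPM in tpMo, they were 52.5 and 5.14 TPM. The median was 0 in both labels, so the difference rests on fewer than 50% of the cells of either.

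Of the lipid hydrolases, Asah1, acid ceramidase, was 3.70 higher in tpMo, with a median of 260.1 TPM (0 to 1198) against 0.86 TPM (0 to 406). Lipa, the acid lipase that splits cholesteryl esters, was 2.60 higher, with 15 of 31 tpMo and 3 of 31 preNeu cells at 1 TPM or more. Ppt1, which removes palmitate from proteins, differed by 0.85 on the log scale and by -0.24 as a ratio of mean TPM, so no direction is given for it.

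Of the 4 sulfatases, 1 differed by 1 log2 unit or more, and the other 3 were detected in few cells of either label. Galns, which removes sulfate from keratan sulfate and chondroitin sulfate, was lower in tpMo by -2.77. Its median in preNeu was 42.5 TPM (0 to 564.5) and in tpMo 0 TPM (0 to 412), and 18 and 6 of the 31 cells reached 1 TPM. Its gene overlaps Gm20388 on the other strand. Arsb differed by 0.24, with 5 of 31 preNeu and 6 of 31 tpMo cells at 1 TPM or more. Ids and Sgsh were almost undetected: Ids reached 1 TPM in 1 tpMo cell and in no preNeu cell, and Sgsh in 1 preNeu cell and in no tpMo cell. The median over the 4 genes was -0.05 log2 units, and it rests mostly on genes detected in few cells.

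Of the 11 V-ATPase genes, 9 were higher in tpMo on the log scale and none was lower, with a median of 1.74. By the ratio of mean TPM all 11 lay above 0, as did 7494 of the 12026 genes. Of the 11, 3 were higher by 1 or more, where 39.1% of all genes were. The median was 0.68 beside 0.49 for all genes. On that measure the count at 1 log2 unit did not stand above the background, whereas the median lay somewhat above it. Atp6v1b2, the nucleotide-binding B subunit, differed by 2.50, with a median of 658 TPM (17.5 to 1697) in tpMo against 284 TPM (0 to 1146) in preNeu. Atp6v1g1, of the peripheral stalk, differed by 2.37, with medians of 342 and 45.6 TPM. Both remained 1 log2 unit or more higher by the ratio of mean TPM, at 1.23 and 1.01, as did the accessory subunit gene Atp6ap1 (2.93 and 1.36).

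The 4 membrane sector genes differed less by the ratio of mean TPM than on the log scale. Atp6v0b differed by 2.45 on the log scale, with medians of 687 TPM (0 to 2935) and 274 TPM (0 to 2068), and by 0.68 as a ratio of mean TPM, and it reached 1 TPM in 28 of 31 tpMo and 23 of 31 preNeu cells. Atp6v0d1 differed by 1.69 on the log scale and by 0.13 as a ratio, at means of 103.4 and 94.7 TPM, with 24 and 17 cells at 1 TPM or more. Without its highest preNeu cell, at 1126 TPM, the preNeu mean of Atp6v0d1 was 60.3 TPM. Atp6v0e differed by 1.61 and 0.21, with 30 and 26 cells at 1 TPM or more. Atp6v0c was detected in all 31 cells of both labels, with medians of 1043 and 649.8 TPM and a difference of 1.26. Scaling by the median ratio over 547 widely detected genes brought Atp6v0c to 0.44 and Atp6v0e to 0.91.

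Atp6v1f (2.12) and the catalytic subunit gene Atp6v1a (1.74) were higher on the log scale. Atp6v1e1 (1.00, just under the threshold) and Atp6ap2 (0.76) were not counted as higher. Tfeb was listed at 0 in all 31 preNeu cells and reached 1 TPM in 7 of 31 tpMo cells (22.6%, interval 9.59 to 41.1), up to 215 TPM, so no fold is given, although it counts among the 29 higher genes. Of the 12 members with CACGTG in their window, 9 were higher in tpMo (median 1.65), and of the 24 with a window without it, 17 were higher and 2 lower (median 2.10).

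Ly6C+GMP and proneu cells come from the same gate, and they differed little as groups. Of the 41 genes, 7 were higher in Ly6C+GMP and 1 was lower, where 15.9% of all genes were higher and 2.2% lower. The median was 0.29 for the members and 0.22 for all genes. By the ratio of mean TPM, 6 were higher and 1 lower, where 20.5% and 9.03% of all genes were, and the medians were 0.12 and 0.16. The higher genes were Pld4 (3.22), Asah1 (2.70), Atp6v1g1 (2.63), Psap (2.53), Cd68 (1.81), Scpep1 (1.77) and Atp6v1e1 (1.10), and the lower one was Cd63 (-3.73). In tpMo against preNeu the same direction was seen for 6 of these 7 higher genes by 1 log2 unit or more, with Atp6v1e1 just under it, and for Cd63.

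The title runs bear on this comparison, since the 2 labels come mostly from different runs. Within run C, which holds 10 Ly6C+GMP and 21 proneu cells, 10 members were higher and 3 lower, against 19.4% and 5.04% of all genes. Pld4 then differed by -0.08, Psap by 0.40, Asah1 by 0.67, Scpep1 by 0.17 and Cd63 by -0.69. The differences of these 5 genes thus fell within 1 log2 unit once run A was left out, and a difference of runs cannot be told apart from one of labels for them. Those that held within run C on the log scale were Cd68 (2.68), Atp6v1g1 (2.94) and Atp6v1e1 (2.95). These 3 differed by 1.10, 0.99 and 0.15 when the ratio of mean TPM over all cells was taken.

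Atp6v1g1 ran from 15.4 to 529 TPM with a median of 245 TPM among the 10 run C cells of Ly6C+GMP, and from 0 to 510 TPM with a median of 90.5 TPM in the 21 proneu cells. Atp6v1e1 was detected at 1 TPM in all 10 of those Ly6C+GMP cells and in 14 of 21 proneu cells. Of the V-ATPase genes, 5 of 11 were higher within run C and none was lower, with a median of 0.90 log2 units. Over all cells and as ratios of mean TPM, none of the 11 was higher or lower by 1 or more, and their median was 0.17. Scarb2 (-1.96), Galns (-1.62) and Arsb (-1.60) were lower within run C. Scarb2 reached 1 TPM in none of the 10 Ly6C+GMP cells, which allows a share of up to 30.8% by the exact interval, and in 7 of 21 proneu cells.

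**Figure D5:**
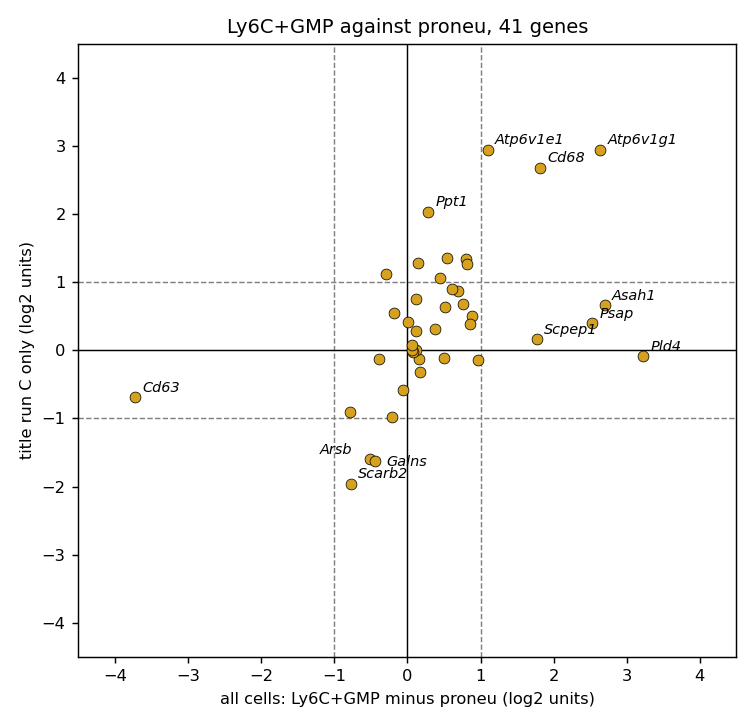
Difference of mean log2(TPM + 1) between Ly6C+GMP and proneu for the 41 genes, over all cells (horizontal axis) and within title run C (vertical axis); dashed lines mark 1 log2 unit. Pld4 stands at 3.22 over all cells and near 0 within run C, and Cd63 moves from -3.73 to -0.69, whereas Atp6v1g1, Atp6v1e1 and Cd68 stay above 1.

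Pld4 and Cd63 show how mixed the Ly6C+GMP label is. At 10 TPM or more, Pld4 was found in 48 of 95 Ly6C+GMP cells of run A (50.5%, interval 40.1 to 60.9), in 0 of 10 of run C, in 0 of 22 proneu and 0 of 31 preNeu cells, and in all 31 tpMo cells. Cd63 was found at that level in all 22 proneu cells and all 10 Ly6C+GMP cells of run C, and in 67 of 95 of run A. In the 95 cells of run A, 29 held both genes at 10 TPM, 38 held Cd63 alone, 19 held Pld4 alone and 9 held neither. Both transcripts thus occurred in the same cell in 29 cases, so they did not mark exclusive groups at this stage. Of the 48 run A cells with Pld4, 45 also held Irf8, the transcription factor of monocyte and dendritic fate, at 10 TPM, and 26 held Irf8 without Pld4. In run C only 2 of the 10 Ly6C+GMP cells held Irf8 at that level, and none of the 22 proneu cells did. The comparison within run C thus sets proneu against Ly6C+GMP cells that mostly lacked Irf8 and Pld4.

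The level of Cd63 ordered the labels otherwise than any other membrane gene. Its median was 1718 TPM in proneu, 886 in Ly6C-GMP, 753 in preNeu, 255 in Ly6C+GMP, 6.08 in CMP and 0 in tpMo. The 22 proneu cells held between 591.5 and 3484 TPM, and the other progenitor labels each spread from 0 to at least 1566.5 TPM. In Ly6C+GMP the median was 201 TPM in run A and 1405 TPM in run C.

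Between Ly6C+GMP and tpMo the members moved both ways. In tpMo, 11 of 41 were higher, where 3.2% of all genes were, and 10 were lower, where 33% of all genes were. The median was -0.14 for the members and -0.50 for all genes, and by the ratio of mean TPM the members' median was 0.50, with 13 higher and 5 lower where 14.3% and 27.5% of all genes were. The sign of the members' median thus depends on the measure. Higher genes were led by Ifi30 (7.74), Pld4 (6.04), Psap (4.24), Lamp1 (3.45) and Scpep1 (3.14). Lower genes were led by Cd63 (-5.74), Neu1 (-3.56), Glb1 (-3.10), Gaa (-2.73) and Atp6ap2 (-2.36). Against the 10 Ly6C+GMP cells of run C alone, these 10 genes kept their direction, from 9.32 (Pld4) to -8.77 (Cd63), and the members' median was -0.27. Glb1 reached 1 TPM in 62 Ly6C+GMP cells (59.05%) and 4 of 31 tpMo cells (12.9%, interval 3.63 to 29.8), and Gaa in 57 (54.3%) and 1 of 31. Of the 11 V-ATPase genes, 1 was higher (Atp6v1b2, 1.02) and 1 lower.

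On the neutrophil side, and mostly within run C, 25 of 41 members were lower in preNeu than in proneu and 1 was higher, where 36.4% of all genes were lower and 3.27% higher. The median was -1.74 for the members and -0.55 for all genes. Gusb (-4.07), Cd164 (-3.92), Hexa (-3.91), Atp6ap2 (-3.91) and Glb1 (-3.67) were the lowest. Hexa ran from 106 to 866 TPM in proneu, with a median of 477 TPM, and from 0 to 1054 TPM in preNeu, with a median of 84.2 TPM. Glb1 reached 1 TPM in 11 of 22 proneu cells and 1 of 31 preNeu cells. Galns (1.03) was the 1 gene that was higher.

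This comparison also depended on the measure. By the ratio of mean TPM, 14 members were lower and 3 higher, where 40.6% and 14.4% of all genes were, so the members did not stand out. Their median was then -0.38, beside -0.53 for all genes. For the V-ATPase genes the sign changed, from a median of -1.36 on the log scale to 0.18 by the ratio of mean TPM. Rescaled without the most abundant genes, the V-ATPase sum had a median of 4546.5 in proneu and 5079 in preNeu, and that of the other 29 genes 5962 and 4265. The lower number of genes detected in preNeu and the large share of its 20 most abundant genes move with this comparison, and their part in it was not tested.

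On the log scale, more members were higher than lower in Ly6C-GMP against CMP and in Ly6C+GMP against Ly6C-GMP. In Ly6C-GMP against CMP, 26 of 41 members were higher and 1 (Cd164, -1.01) was lower, where 16.3% and 1.35% of all genes were. The median was 1.28 for the members and 0.20 for all genes. Cd63 (4.07), Atp6ap2 (2.94), Psap (2.51), Atp6v0c (2.25) and Atp6v1b2 (2.24) led, and 10 of 11 V-ATPase genes were higher. The members' median was 1.13 within run H and 1.41 within run B. By the ratio of mean TPM, 8 were higher and 3 lower, where 12.2% and 19.8% of all genes were, at a median of 0.22. Cells of CMP had fewer members detected, with a median of 17 of 41 (8 to 27) against 24 in Ly6C-GMP (10 to 31). Their fewer detected genes in general move with this comparison, and that part was not tested.

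From Ly6C-GMP to Ly6C+GMP, 16 members were higher and 1 (Cd63, -1.22) was lower, where 10.2% and 1.4% of all genes were. The median was 0.78, against 0.12 for all genes. Pld4 (2.64), Atp6v1a (2.20), Grn (1.801), Hexa (1.70) and Atp6v1b2 (1.70) led. Atp6v1a, for example, reached 1 TPM in 25 of the Ly6C-GMP cells (55.6%) and in 87 of the Ly6C+GMP cells (82.9%), with medians of 4 and 93.7 TPM. No title run holds both labels, so a difference of runs cannot be told apart from one of labels here, and by the ratio of mean TPM 5 were higher and none lower, where 10.2% and 10.1% of all genes were.

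Other lysosomal genes, from lists beside the 41, gave smaller shares than the members on the log scale, and for 4 of the 5 lists similar ones by the ratio of mean TPM. On the log scale, in tpMo against preNeu, 3 of 14 further V-ATPase subunits were higher and none lower, and their median was 0. Of these subunits, 6 lay above 0, 1 below it and the rest at exactly 0. Their leaders were Atp6v1c1 (1.52) and Atp6v1d (1.22). Among 31 further hydrolases and cofactors, whose median was 0.46, the count was 11 higher and 1 lower. Gm2a, the activator protein of hexosaminidase A, was 7.81 higher, at means of 462 and 4.77 TPM, and Creg1 was 6.76 higher, at 637 and 34.99 TPM. Without the highest preNeu cell these preNeu means were 1.002 and 16.3 TPM.

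Of 22 further membrane genes, 6 were higher and none lower, led by Laptm4a (3.24) and Slc29a3 (2.68), a nucleoside exporter of the lysosome. Of 9 genes of the mannose phosphate sorting route, 3 were higher and 1 lower, led by M6pr (5.30), the cation-dependent receptor that carries hydrolases to the lysosome, and Nagpa (2.92). M6pr had means of 492 TPM in tpMo and 86.8 TPM in preNeu. Of 18 genes of the TFEB family and of the lysosomal mTORC1 machinery, 6 were higher and 1 lower, led by the small GTPase gene Rraga (3.05) and Lamtor5 (2.82). These lists stand beside 23.7% of all genes higher and 4.07% lower, as above. The lists were not filtered by level as that background was, so their shares are not fully alike. Counted on the ratio of mean TPM, the higher genes were 1 of 14 V-ATPase subunits, 17 of 31 hydrolases and cofactors, 12 of 22 membrane genes, 5 of 9 sorting genes and 10 of 18 genes of the last list. The members' 23 of 41 and the 39.1% of all genes are on the same measure.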

How the data were processed

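SMART-seq2 libraries of 281 single cells were made by the authors, per the labels' protocols, and 1 table of TPM values was deposited by the authors. The submitters' processing notes name RSEM 1.2.19 and GRCm38, and the sources used here give no aligner, annotation or filter. TPM keeps no read depth, there are no molecular identifiers, and strand is not marked, so a gene's reads cannot be told from those of an overlapping gene (15 of the 41 members overlap one in GENCODE M21). All 281 columns matched a sample title and no 2 were identical. From the table were computed the mean over cells of log2(TPM + 1), with a pseudocount of 1 TPM, and the log2 ratio of mean TPM + 1 (Python 3.11.15, pandas 2.3.3, scipy 1.17.1). Background counts used the 12026 genes with a mean of label means of at least 1 TPM, not matched to the members in level. The calculation was tested on simulated data, with known folds set on widely detected genes of Ly6C+GMP cells only. That test does not cover genes detected in few cells. The members and lists were chosen with earlier results of these data known. Values in full were given for the up to 20 members with the largest differences of at least 1 log2 unit in tpMo against preNeu or Ly6C+GMP against proneu and for at least 1 of each role. Other genes named were chosen after their values were seen, except the 2 leaders of each further list. Alternatives changed the pseudocount, measure, scaling, filter, title runs and cells. Promoter windows are from RefSeq.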

Additional observations from a re-analysis of the deposited data

How the results depend on the processing

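With a pseudocount of 10 TPM the medians over the 41 genes were 1.13 for tpMo against preNeu, 0.052 for tpMo against Ly6C+GMP (reversed from -0.14) and -0.85 for preNeu against proneu; 4 members were higher in Ly6C+GMP than proneu, 5 in Ly6C+GMP than Ly6C-GMP, 12 in Ly6C-GMP than CMP with 0 lower, and 0 in preNeu than proneu. With 0.1 TPM the medians were 2.40, -2.48 (preNeu against proneu) and 1.95 (Ly6C-GMP against CMP), with 11 members higher in Ly6C+GMP than proneu and 2 lower in Ly6C-GMP than CMP. By the ratio of mean TPM the medians were 0.50 for tpMo against Ly6C+GMP (reversed, 5 lower), -0.38 for preNeu against proneu (3 higher, 14 lower) and 0.22 for Ly6C-GMP against CMP (8 higher, 3 lower), with 5 higher and 0 lower in Ly6C+GMP than Ly6C-GMP. Median-ratio scaling gave 2 higher in preNeu than proneu. Rescaling without mitochondrial and abundant genes raised the summed preNeu median from 5785 to 9823 TPM (tpMo 19770.5), and this rescaling, or leaving out each gene's highest cell, gave 0 lower in Ly6C-GMP than CMP, where run B gave 2. Within run C, 3 members were lower in Ly6C+GMP than proneu, and Pld4 reversed to -0.084. Of the counts, medians and sums under all alternatives, 157 stayed within 1.5-fold of the 24 reported values with the same sign, 27 moved further and 2 reversed. Comparisons restricted to Ly6C+GMP cells of run A, a detection limit of 10 TPM and sums without the most abundant member were added after seeing the data. Leaving out replicates was not run, since each label is 1 sample, and no paired analysis was possible because the result comes from no test. Counting error over cells limits shares to the intervals given.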
